A study of Homo sapiens with 8 samples.

Results

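Ephrins and Eph receptors were examined in SQ20B cells, an established human line derived from a head and neck squamous cell carcinoma. The set of 10 genes was chosen by name, with earlier results of these data known. The set held 6 ephrins (EFNA1, EFNA3, EFNA4, EFNA5, EFNB1 and EFNB2) and 4 receptors (EPHA2, EPHA4, EPHB2 and EPHB4). RefSeq transcript identifiers assigned 13 of the 24812 listed transcripts to these genes, which were 10 of the 14528 named genes. Poly(A)-selected RNA had been sequenced from 4 normoxic libraries and from 4 libraries of cells held at 0.5% O2 for 16 h. All cultures were the same line in high-glucose medium with serum at 5% CO2, so that the comparison describes a single line. Each condition is represented by 1 FPKM value per transcript, a fragment count scaled by transcript length and by library size, which the authors combined over its replicates. Spread between replicates and fragment counts were not analysed here, and the authors' own test columns were not used, so the values are given here without an error, interval or test, and the precision that depth gives is unknown.

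Ephrins are membrane-bound ligands, and the Eph proteins that bind them form the largest family of receptor tyrosine kinases. A-type ephrins are held in the membrane by a lipid anchor and mainly bind EphA receptors, whereas B-type ephrins cross the membrane and mainly bind EphB receptors. Because ligand and receptor sit on touching cells, contact can send a forward signal through the receptor and a reverse signal through the ephrin. In epithelia these signals are known for repulsion, boundary formation and control of adhesion, and ephrins are also known for their role in vessel growth.

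Hypoxia was checked first with 4 known hypoxia-induced genes (VEGFA, SLC2A1, CA9 and NDRG1), whose log2 changes lay between 1.02 and 5.58. Of 7 squamous epithelial markers, 5 were listed, and no listed transcript was paired with KRT14 or PKP1. KRT5 led with 398 FPKM under normoxia and 442 under hypoxia (log2 change 0.15). TP63 had a log2 change of 0.06, whereas SFN (-0.21), DSG3 (-0.36) and KRT6A (-0.63) were lower in hypoxia, KRT6A with 5.10 and 3.26 FPKM. Among 8 markers of endothelium, fibroblasts and leukocytes, CDH5, an endothelial cadherin, was the only one listed, with 4.78 FPKM under normoxia and 2.83 under hypoxia, and its part in the results was not tested. In bulk RNA, fewer cells with a transcript and less of it per cell cannot be told apart.

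Promoter sequences are shown for EFNA1, EFNA3 and EFNA4, which lie beside each other on chromosome 1 and differed in their change. That of EPHA2, the receptor that differed most between the conditions, is also shown. These genes were picked with their changes known, and a link between sequence and change was not tested. In hg19 the listed intervals were chr1:155051348-155060014 for EFNA3 and chr1:155100349-155107386 for EFNA1. The interval listed for EFNA4 (chr1:155006282-155042029) also covers ADAM15 and DCST1-AS1, and GENCODE places EFNA4 itself at chr1:155036213-155042029 of GRCh37. All 3 genes are on the plus strand, within 71.2 kb. Promoter windows from 250 bases before to 30 bases after the RefSeq start are printed from GRCh38.p14, 5′ to 3′ on the strand of the gene. Capitals mark ACGTG or GCGTG on either strand, so also CACGT and CACGC, the letters known as the core that hypoxia-inducible factors bind.
EFNA1 promoter, chr1:155127626-155127905, plus strand: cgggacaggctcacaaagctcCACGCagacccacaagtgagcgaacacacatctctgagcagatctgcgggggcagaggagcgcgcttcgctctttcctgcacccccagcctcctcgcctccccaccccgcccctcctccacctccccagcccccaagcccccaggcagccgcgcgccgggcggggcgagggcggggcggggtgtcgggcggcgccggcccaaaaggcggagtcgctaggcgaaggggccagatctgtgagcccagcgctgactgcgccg
EFNA3 promoter, chr1:155078587-155078866, plus strand: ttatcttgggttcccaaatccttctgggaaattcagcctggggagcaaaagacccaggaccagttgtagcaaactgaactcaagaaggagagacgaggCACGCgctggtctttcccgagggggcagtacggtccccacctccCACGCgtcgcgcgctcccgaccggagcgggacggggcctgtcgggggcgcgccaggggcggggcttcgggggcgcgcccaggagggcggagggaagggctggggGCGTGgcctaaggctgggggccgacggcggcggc
EFNA4 promoter, chr1:155063490-155063769, plus strand: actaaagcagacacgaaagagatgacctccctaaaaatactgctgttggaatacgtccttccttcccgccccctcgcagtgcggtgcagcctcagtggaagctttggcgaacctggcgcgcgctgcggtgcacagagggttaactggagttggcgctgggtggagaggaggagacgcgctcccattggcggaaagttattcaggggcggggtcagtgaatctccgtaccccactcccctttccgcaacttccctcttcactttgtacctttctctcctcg
EPHA2 promoter, chr1:16156040-16156319, minus strand: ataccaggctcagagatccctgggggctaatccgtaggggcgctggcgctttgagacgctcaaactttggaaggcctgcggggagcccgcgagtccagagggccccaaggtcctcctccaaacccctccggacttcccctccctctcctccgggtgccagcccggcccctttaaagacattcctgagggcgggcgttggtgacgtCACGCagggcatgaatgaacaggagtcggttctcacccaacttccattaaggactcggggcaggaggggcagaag

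The EFNA3 window held 3 such matches, which began 152, 108 and 4 bases before the start, the EFNA1 window held 1, and the EFNA4 window held none. The EPHA2 window also held 1. EPHA4, with a log2 change of 0.23, had windows with 1 and 3 matches. Overlapping matches were counted separately, in these windows and in the shares of all windows below. In the EPHA4 window with 3 matches, those at the start share bases. EFNA5, EFNB1, EFNB2 and EPHB4 had 1 match in their window, and EPHB2 had 1 in each of its windows. Windows were found for all 10 genes (12 windows), and 9 of the genes had at least 1 match. These letters are common: 46.3% of 35116 promoter windows of this length held at least 1 match and 9.14% held 3 or more. These shares count windows, whereas the 9 above counts genes, some with more than 1 window, so they are not like for like. A match describes the letters of the window and was not related to binding or to the change in level here.

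EFNA1 has an alternative coding exon of 66 bases, a multiple of 3, that is present in 1 of its 2 coding GENCODE transcripts. It is shown because the RefSeq variants of EFNA1 differed in their change, and NM_182685 is known as the variant that skips an in-frame coding exon, whereas the deposited table gives no exon structure. The exon lies at chr1:155105979-155106044 of GRCh37 on the plus strand, and capitals mark the exon between 12 intronic bases on each side.
EFNA1 alternative exon: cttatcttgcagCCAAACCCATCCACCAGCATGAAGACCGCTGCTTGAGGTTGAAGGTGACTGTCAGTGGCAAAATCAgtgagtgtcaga

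To compare the conditions, FPKM values were summed over the listed transcripts of a gene and the change was taken as the log2 ratio of hypoxia over normoxia after adding 0.1 FPKM to each. This addition understates the change of low genes, and folds are on the same scale. All 10 genes reached a mean FPKM of 0.5, the limit applied to all genes. In hypoxia, 3 of the 10 were at least 1.5-fold higher (EFNA1, EFNA3 and EFNB1) and 0 were at least 1.5-fold lower. Among all 12106 genes above the limit, 9.95% were at least 1.5-fold higher and 11.2% at least 1.5-fold lower. The 3 genes were all ephrins: the log2 changes of the 6 ephrins lay between 0.09 and 1.86 with a median of 0.59, and those of the 4 receptors between -0.54 and 0.23 with a median of 0.03. The median over the 10 genes was 0.29, against -0.07 for all genes. Members were chosen with earlier results of these data known, so their count beside the shares of all genes is a description only. EPHA1 (log2 change 0.04) and EPHB6 (0.28), of the same family, also reached the limit but were outside the set. Scaling both columns to equal FPKM sums raised the median of all genes by 0.22, and that of the 10 genes to 0.51. Of all genes past 1.5-fold, 46.9% were higher in hypoxia in the values as deposited and 78.9% after that scaling, with 58.6% after median centring and 57.8% after quantile normalization. EFNB1 had the smallest change past 1.5-fold (log2 change 0.83), and EPHA2 the largest short of it (-0.54).

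**Figure D1:**
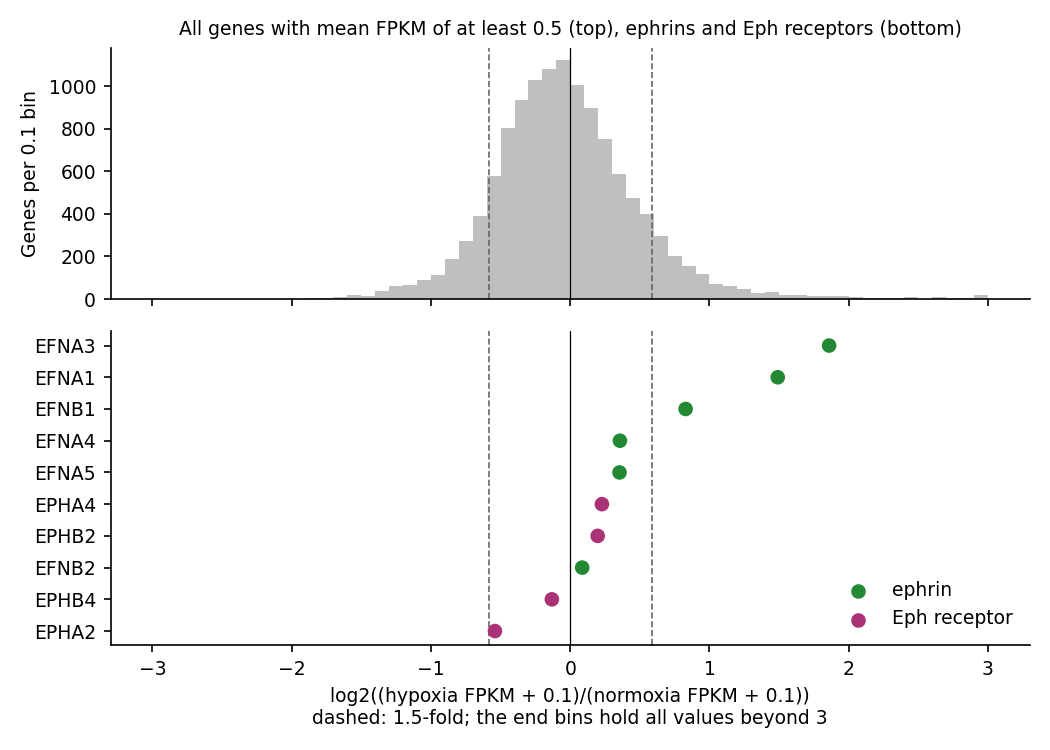
Histogram of the log2 change in hypoxia for 12106 genes whose mean FPKM was at least 0.5 (top, genes per bin) and the 10 ephrins and Eph receptors on the same axis (bottom, points are single values per gene, dashed lines mark 1.5-fold). EFNA3 (1.86), EFNA1 (1.49) and EFNB1 (0.83) lie to the right of the dashed line, and EPHA2 (-0.54) lies just inside the left one.

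Among the ligands of EphA receptors, EFNA1 was the most abundant. It was originally found as a secreted product of cytokine-stimulated endothelial cells and is the preferred ligand of EPHA2. EFNA1 had 11.8 FPKM under normoxia and 33.3 under hypoxia, which was 2.81-fold higher (log2 change 1.49). It ranked first of the 10 genes in both conditions. Of the 5811 genes whose mean FPKM was at least 10, 5.09% were at least 1.5-fold higher in hypoxia and 0.878% had a change as large as that of EFNA1 or larger.

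EFNA3, a lipid-anchored ephrin that can bind EPHA2 and EPHA4, had the largest change of the set. It went from 0.383 FPKM in normoxia, the lowest level of the 10 genes, to 1.65 FPKM in hypoxia. The change was 3.63-fold with 0.1 FPKM added (log2 change 1.86), 2.11 on the log2 scale with nothing added and 0.94 with 1 FPKM added. Its level in hypoxia stayed below the normoxic level of 8 other members. In normoxia it lay below 0.5 FPKM, so it passed the limit on the mean only through its hypoxic level. Its place among the genes above that limit is therefore a description only. Without a limit on the mean, 11.9% of 14528 genes were at least 1.5-fold higher. Among the 2359 genes with a mean FPKM from 0.5 to 2, 18.9% were at least 1.5-fold higher and 1.14% had a change as large as that of EFNA3 or larger. RefSeq of GRCh38.p14 also annotates a readthrough gene that joins EFNA4 and EFNA3, whose transcript was not analysed here, so fragments from it cannot be told apart from those of either gene.

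EFNA4 and EFNA5, which also code for lipid-anchored ligands, stayed short of 1.5-fold. EFNA4 had 3.28 FPKM under normoxia and 4.23 under hypoxia (log2 change 0.36). EFNA5, known for axon guidance and able to bind EPHB2 as well as EphA receptors, had 2.25 and 2.90 FPKM (0.35). Their changes were higher than those of 81.1% and 80.9% of all genes, whereas those of EFNA1 and EFNA3 were higher than 98.7% and 99.3%.

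The B-type ephrins differed from each other in level and in change. EFNB1, whose loss causes a craniofacial disorder, lies on chromosome X (68048840 to 68062006 in hg19). It had 0.883 FPKM under normoxia and 1.65 under hypoxia, 1.78-fold higher (log2 change 0.83). This change depended on the pseudocount, since with 1 FPKM added it was 0.49 and no longer reached 1.5-fold. It also lay in the range of FPKM where 18.9% of genes were at least 1.5-fold higher. EFNB2, known as the ligand of EPHB4 that marks arterial endothelium, differed little, from 9.35 FPKM under normoxia to 9.93 under hypoxia (0.09).

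Of the receptors, EPHA2 had the largest change. It is a major Eph receptor of epithelial cells and carcinomas, and had 9.13 FPKM under normoxia and 6.24 under hypoxia. This was 1.45-fold lower (log2 change -0.54), short of 1.5-fold under every alternative that was tried, with log2 changes from -0.55 to -0.32. EPHA4, which can bind ephrins of both types, had 5.24 FPKM under normoxia and 6.15 under hypoxia (0.23). EPHA2 was thus more abundant than EPHA4 in normoxia, and in hypoxia they lay within 0.1 FPKM of each other.

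The EphB receptors differed little between the conditions. EPHB2, known for positioning cells in the intestinal epithelium, had 3.84 FPKM under normoxia and 4.42 under hypoxia (log2 change 0.20). EPHB4, known from the venous endothelium, had 9.91 and 9.04 FPKM, a log2 change of -0.13 that turned into 0.09 when the columns were scaled to equal FPKM sums. No other member changed its direction under any scaling that was tried.

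**Figure D2:**
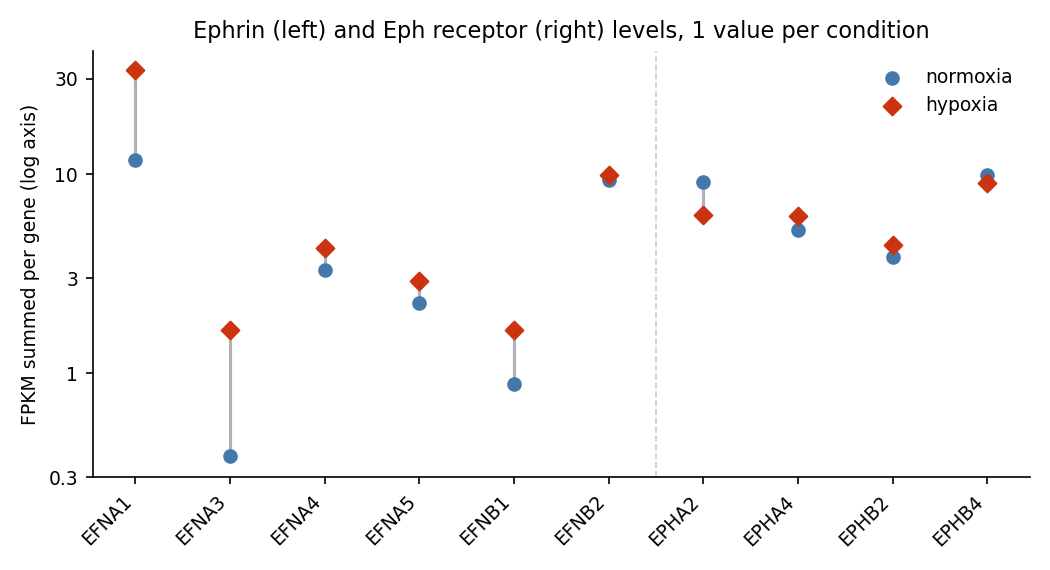
FPKM summed per gene on a log axis for the 6 ephrins (left of the dashed line) and 4 Eph receptors (right), with 1 value per condition (circles normoxia, diamonds hypoxia, grey lines join them). EFNA1 moves from 11.8 to 33.3 FPKM and EFNA3 from 0.383 to 1.65, whereas EPHA2 moves from 9.13 down to 6.24.

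In order of level, EFNA1, EPHB4, EFNB2 and EPHA2 led in normoxia with 9.13 to 11.8 FPKM, followed by EPHA4, EPHB2, EFNA4 and EFNA5 with 2.25 to 5.24, and EFNB1 and EFNA3 were below 1 FPKM. In hypoxia EFNA1 stood apart at 33.3 FPKM, and EFNB2 came next with 9.93. Since FPKM is scaled by transcript length, levels can also be added over ligands and over receptors. The 4 A-type ephrins summed to 17.7 FPKM under normoxia and 42.0 under hypoxia (log2 change 1.24), and EFNA1 made up 88.2% of the difference. Its share of the A-type sum was 66.6% in normoxia and 79.1% in hypoxia. The 2 EphA receptors summed to 14.4 FPKM under normoxia and 12.4 under hypoxia, a log2 change of -0.21 that became 0.01 after scaling to equal FPKM sums. The ratio of A-type ephrin to EphA receptor FPKM, which a common scaling of a column cannot alter, was 1.23 in normoxia and 3.39 in hypoxia. For B-type ephrins over EphB receptors the ratio was 0.744 in normoxia and 0.860 in hypoxia. The B-type ephrins summed to 10.2 and 11.6 FPKM and the EphB receptors to 13.8 and 13.5. The log2 change of the EphB receptor sum was -0.03 as deposited. It became 0.19 after scaling to equal FPKM sums, 0.04 after median centring and 0.02 after quantile normalization. Adding the other listed family genes left the A-type ephrin sums at 17.7 and 42.2 FPKM and raised the EphA receptor sums to 17.5 and 15.9. These are ratios of RNA levels, and protein was not measured in these libraries.

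**Figure D3:**
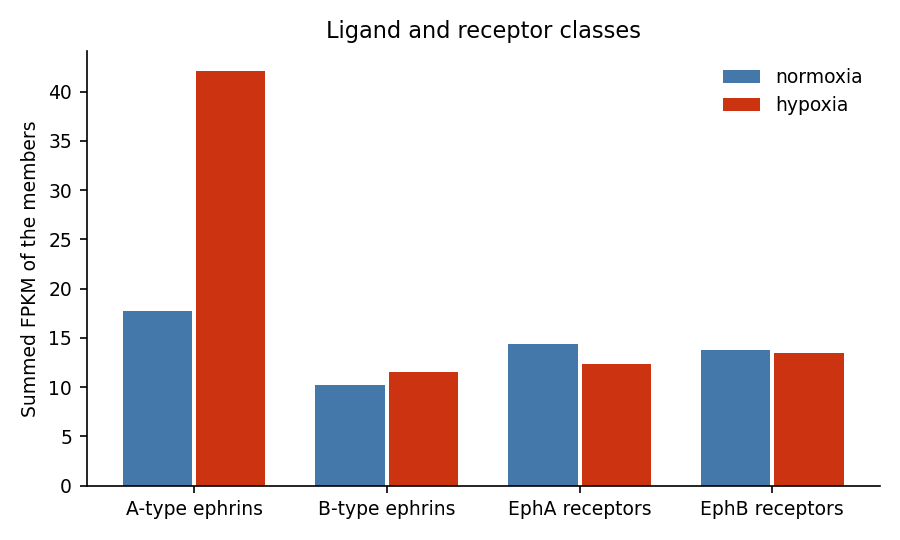
Summed FPKM of the 4 A-type ephrins, 2 B-type ephrins, 2 EphA and 2 EphB receptors in normoxia (blue) and hypoxia (red), as bars of 1 value each without an error. The A-type ephrins go from 17.7 to 42.0 FPKM, and the other classes differ by less than 2 FPKM.

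At the level of transcripts, 7 members had 1 listed transcript and 3 had 2 (EFNA1, EFNA4 and EPHB2). Of the 13 transcripts, 3 were at least 1.5-fold higher in hypoxia (NM_004428 of EFNA1, NM_004952 of EFNA3 and NM_004429 of EFNB1), against 10.5% of 18190 transcripts whose mean FPKM was at least 0.5. None was at least 1.5-fold lower, against 14.3% of those transcripts. The higher level of EFNA1 was carried by NM_004428, which had 10.3 FPKM under normoxia and 32.0 under hypoxia (log2 change 1.63). NM_182685 had 1.49 and 1.22 FPKM (-0.27), and its share of the EFNA1 sum was 12.6% in normoxia and 3.66% in hypoxia. The log2 change of NM_182685 was closer to 0 after scaling to equal FPKM sums (-0.06), with that of NM_004428 at 1.85.

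In EFNA4 both transcripts were higher in hypoxia. NM_005227 had 2.83 FPKM under normoxia and 3.54 under hypoxia (log2 change 0.31), and NM_182689 had 0.450 and 0.690 (0.52). The share of NM_182689 was 13.7% in normoxia and 16.3% in hypoxia. In EPHB2 the transcripts went in opposite directions: NM_017449 had 3.15 and 3.87 FPKM (0.29), and NM_004442 had 0.686 and 0.550 (-0.27). The share of NM_004442 was 17.9% in normoxia and 12.5% in hypoxia. Cufflinks divides fragments between overlapping transcripts of a gene, and the error of that division was not analysed here, so shares of low transcripts are descriptions.

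**Figure D4:**
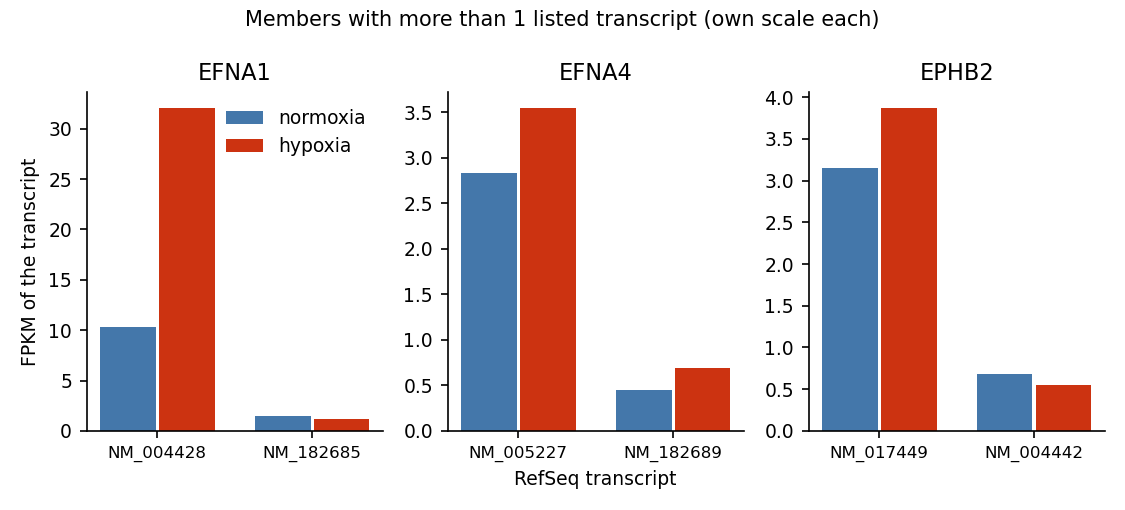
FPKM of each listed transcript in normoxia (blue) and hypoxia (red) for the 3 genes with 2 transcripts, each panel on its own scale from 0, 1 value per bar without an error. NM_004428 of EFNA1 goes from 10.3 to 32.0 FPKM while NM_182685 goes from 1.49 to 1.22, and the EPHB2 transcripts move in opposite directions.

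EFNA1 and EFNA3 are neighbours, and the genes around them were therefore described too, in a window of 100 kb to each side of the cluster that was chosen with the values known. Of 13 other genes whose mean FPKM was at least 0.5, 2 were at least 1.5-fold higher (MUC1 and THBS3) and 2 at least 1.5-fold lower (FLAD1 and MTX1), against 9.95% higher and 11.2% lower among all genes, with a median log2 change of 0.03. MUC1 and THBS3 had mean FPKM between 0.5 and 2, the range where 18.9% of genes were at least 1.5-fold higher. MUC1, a cell surface mucin whose start lies 62.4 kb from that of EFNA1, had 0.688 FPKM under normoxia and 2.47 under hypoxia (log2 change 1.71). The genes nearest to EFNA1 did not share its change: SLC50A1, a sugar transporter that starts 7.47 kb away, had a log2 change of 0.14. ADAM15, a metalloprotease gene next to EFNA4, had 0.06. MTX1 has a near-identical pseudogene in the same region, so its value is uncertain, and its change of -0.72 became -0.50 after scaling to equal FPKM sums, short of 1.5-fold.

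**Figure D5:**
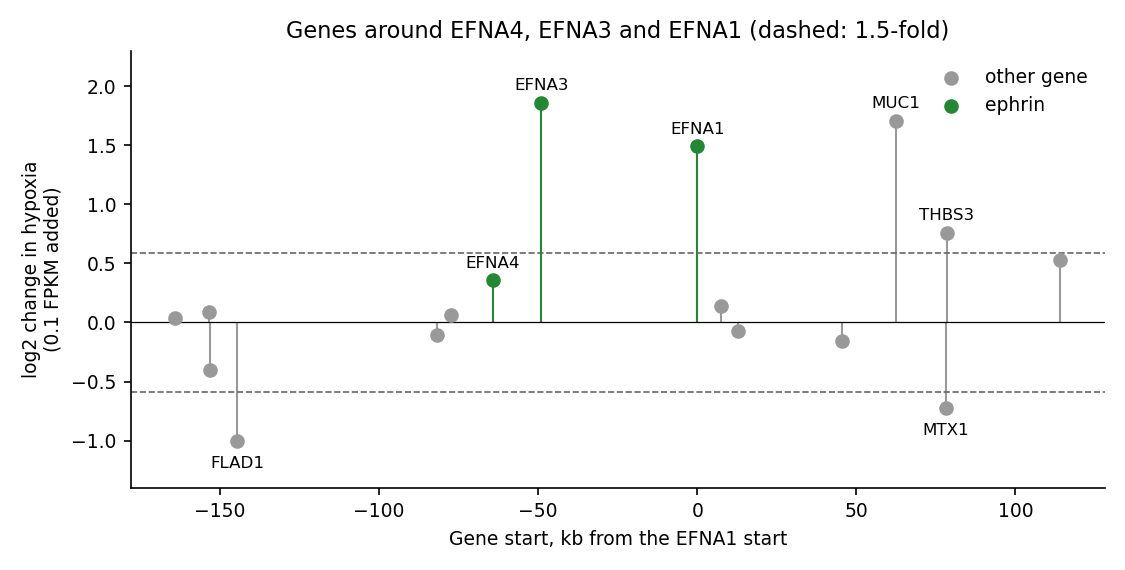
Log2 change in hypoxia (0.1 FPKM added) of the genes whose mean FPKM was at least 0.5 around EFNA4, EFNA3 and EFNA1, plotted by the distance of the gene start from that of EFNA1 in kb (green ephrins, grey other genes, dashed lines 1.5-fold). EFNA3 (1.86), EFNA1 (1.49) and MUC1 (1.71) stand above the genes between and beside them.

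Of the 12 other genes of the family, 5 were listed, and for the other 7 no listed transcript was paired with the symbol. EPHA1, an epithelial Eph receptor, had 3.09 FPKM under normoxia and 3.18 under hypoxia (log2 change 0.04). EPHB6, a receptor without kinase activity, had 0.453 and 0.571 FPKM (0.28). EFNA2, EPHA3 and EPHB3 lay below a mean of 0.5 FPKM. The largest change among them was that of EPHA3, from 0.0590 to 0.321 FPKM. Its fragment counts were not analysed here, so no direction is read from it.

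Genes that act next to the receptors and ephrins were described as 2 lists. Of 22 adaptors, kinases and phosphatases that bind Eph receptors or their partners, 2 were at least 1.5-fold higher and 0 at least 1.5-fold lower, with a median log2 change of 0.08. FYN, a Src-family kinase, had 4.75 FPKM under normoxia and 7.83 under hypoxia (0.71). CRKL, an adaptor, had 39.4 and 63.2 FPKM (0.68). Nearest to 1.5-fold without reaching it was PIK3R1, a regulatory subunit of phosphoinositide 3-kinase (0.57), among the higher genes. Among the lower genes it was GRB2, an adaptor (-0.54). GRB10 (0.55) passed 1.5-fold with nothing added (0.64), and its change was 0.26 with 1 FPKM added. After scaling to equal FPKM sums, 7 of these genes were at least 1.5-fold higher, where 18.6% of all genes were, so the count depended on the scaling. With the most abundant transcript of each gene, 1 remained higher (CRKL), and FYN fell just short of 1.5-fold (0.58).

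Of 8 genes of reverse signalling and ephrin cleavage above the limit, 1 was at least 1.5-fold higher and 0 lower, with a median of 0.33. That gene was NCSTN, a subunit of the gamma-secretase that cuts ephrin-B stubs, which had 4.56 and 6.97 FPKM (0.60). With 1 FPKM added it fell short of 1.5-fold (0.52) and 0 genes of this list were higher, and after scaling to equal FPKM sums 2 were. The nearest short of 1.5-fold were PICK1, a PDZ protein that was 1.48-fold lower (-0.57), and PARD6B, a polarity protein (0.43). PICK1 passed 1.5-fold with nothing added (-0.59). Its change was -0.35 after scaling to equal FPKM sums and -0.21 with its most abundant transcript. ADAM10, the protease that sheds ephrins at cell contacts, had 71.9 and 82.3 FPKM (0.19). Against 9.95% of all genes higher and 11.2% lower in the values as deposited, and with counts this small that moved with the settings, neither list gives a result about the pathway.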

How the data were processed

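Poly(A)-selected stranded libraries of SQ20B cells (4 normoxic and 4 hypoxic) had been aligned by the authors with STAR 2.3.0.1 to hg19 and quantified with Cufflinks 2.1.1 and RefSeq annotation, as given in the submitters' processing notes and methods. The deposited FPKM values hold 1 value per transcript and condition over its replicates. The table also holds the authors' fold changes, test statistics, p- and q-values, which were not used. Identifiers were paired with symbols through RefSeq of GRCh38.p14 (24293 of 24812 transcripts, 97.9%), and 519 transcripts without a symbol were left out of gene sums. Listed starts were counted from 0 and are given from 1. FPKM was summed per gene, 0.1 was added, and counts cover genes or transcripts that reached a mean FPKM of 0.5. Genes past 1.5-fold were counted. The procedure was tested on simulated data. Each member and every listed family gene is named, and for the pathway lists the genes past the fold and the nearest below it, with ADAM10, which was chosen after its values were seen. A further list of downstream genes is not reported here. Members and lists were chosen with earlier results of these data known. Promoter sequences are from RefSeq (GRCh38.p14), and exons from GENCODE on GRCh37. Computations used numpy 2.4.6, pandas 2.3.3 and matplotlib 3.10.9 under Python 3.11.15.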

Additional observations from a re-analysis of the deposited data

How the results depend on the processing

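No paired analysis was possible because each condition is a single column combined over its replicates, and for the same reason no replicate could be left out. The 3 members at least 1.5-fold higher and the count of 0 lower were the same without a pseudocount, without a limit or with a mean of at least 1 FPKM, under all 3 scalings and for the most abundant transcript of each gene. With 1 FPKM added or a threshold of 2-fold, 2 members were higher and 0 lower, and at 1.2-fold 5 were higher and 1 lower. The median log2 change of the members ranged from 0.23 to 0.51. The sign of EPHB4 changed in 1 of 8 alternatives, and that of the other members in 0. Counts over all genes moved more: with 1 FPKM added, 719 were higher. Equal FPKM sums gave 2278 higher and 611 lower, a threshold of 2-fold 388 and 317, and one of 1.2-fold 2881 and 3990. Equal sums raise every hypoxic value by the same factor, and the other changes follow from the pseudocount or threshold itself. Fragment counts were not analysed here, so low values such as those of EFNA3 and EFNB1 carry an unknown counting error, and the spread between cultures was not analysed here, since the FPKM columns hold 1 value per condition and the authors' test columns were not used.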
